A study of Mus musculus with 16 samples.

Results

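The platelet-derived growth factor (PDGF) family of the mouse has 4 ligand genes, Pdgfa, Pdgfb, Pdgfc and Pdgfd, and the receptor genes Pdgfra and Pdgfrb. These 6 of 18193 measured genes were chosen by name, through every probe set whose single gene symbol on the array platform was one of them. This gave 14 of 34945 probe sets, 9 for the ligands and 5 for the receptors. RNA came from healing dorsal skin incisions of wild-type C57BL/6 mice, in a model of hypertrophic scarring in which the wound is put under mechanical load. The 4 groups of 4 arrays were unstressed wounds at day 6 after injury, stressed wounds at day 6 that had carried load for 48 hours, unstressed wounds at day 14, and stressed wounds at day 14 that had carried load for 10 days. Each array stands for 1 of 4 mice in its group, going by the design text, and a group of 4 sets the precision. The tissue was whole wound, so fewer cells of a type and less RNA per cell cannot be told apart.

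PDGF ligands are secreted as dimers. They bind receptor tyrosine kinases on mesenchymal cells: the product of Pdgfra is a marker of dermal fibroblasts and adipocyte precursors, and the product of Pdgfrb marks pericytes, vascular smooth muscle and wound fibroblasts. PDGF-A and PDGF-B are processed inside the cell, while PDGF-C and PDGF-D leave it as latent dimers whose CUB domains are removed by proteases such as tissue plasminogen activator and urokinase. In wounds the family is known as a signal from platelets, macrophages, endothelium and epidermis to the cells that migrate into the wound and deposit matrix.

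The values are log signals centred per probe set, read as log2, and a value of 0 has no meaning as a level, so the values serve to compare arrays on 1 probe set. If the logs are natural, every log2 difference below is 1.44 times as large. The array medians over all probe sets lay between -0.009 and 0.052. Because of the centring, the presence of the labelled tissue could not be checked by the level of its markers. All arrays are labelled female, but Xist, which coats the silenced X chromosome, lay at -0.53 to 0.81 in 12 arrays and at 5.98 to 6.30 in the other 4. Those 4 were replicates 3 and 4 of both day 14 groups, and the mean of 3 Y-linked genes there lay at -3.97 to -3.53, against -0.99 to 0.74 in the 12. The low Xist of the 12 arrays goes against their label. Both loading groups of day 14 hold 2 arrays of each class, whereas day 6 holds the low-Xist class alone, and results are given below by class where the classes bear on them. A member was called where its adjusted p in limma, fitted over all 34945 probe sets, was below 0.05.

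RefSeq promoter windows (GRCm38.p6) were at hand for 4 of the 6 genes, Pdgfa, Pdgfc, Pdgfd and Pdgfra. They are shown for these genes because Pdgfa moved against the others under load at day 14, as described below. Each line gives the 250 bases before a RefSeq transcription start, 5' to 3' on the gene's strand, and for Pdgfd the 127 of these bases that lie before the annotated gene. Capitals mark matches, on either strand, to 1 of 6 motifs searched, which were the GC box GGGCGG, the TATA box TATAAA, the CCAAT box, the AP-1 site TGANTCA, the TEAD site GGAATG and the CArG box of serum response factor. None of the matches shown overlaps another.
Pdgfra, chr5:75152001-75152250, plus strand: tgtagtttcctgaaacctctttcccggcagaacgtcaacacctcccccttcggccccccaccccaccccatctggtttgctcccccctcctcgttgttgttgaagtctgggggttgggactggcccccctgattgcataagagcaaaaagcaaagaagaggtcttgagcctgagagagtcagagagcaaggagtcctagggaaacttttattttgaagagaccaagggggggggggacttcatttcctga
Pdgfc, chr3:81036166-81036415, plus strand: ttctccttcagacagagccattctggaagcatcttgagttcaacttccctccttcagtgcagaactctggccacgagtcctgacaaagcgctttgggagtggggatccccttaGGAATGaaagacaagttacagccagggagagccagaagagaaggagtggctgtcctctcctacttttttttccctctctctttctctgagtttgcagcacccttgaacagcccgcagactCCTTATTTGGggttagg
Pdgfd, chr9:6168236-6168362, plus strand: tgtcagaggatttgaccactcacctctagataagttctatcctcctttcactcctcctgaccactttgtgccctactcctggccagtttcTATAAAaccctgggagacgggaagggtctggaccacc
Pdgfa, chr5:138994945-138995194, minus strand: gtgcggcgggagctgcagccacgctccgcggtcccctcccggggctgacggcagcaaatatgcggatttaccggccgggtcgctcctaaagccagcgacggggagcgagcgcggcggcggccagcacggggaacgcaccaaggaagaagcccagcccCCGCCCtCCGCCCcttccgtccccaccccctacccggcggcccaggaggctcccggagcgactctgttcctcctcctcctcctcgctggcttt
The Pdgfa window holds GGGCGG at 2 places, 93 to 88 and 86 to 81 bases before the start. GGGCGG is found in 32.74% of the 32851 promoter windows of this length. The Pdgfc window holds GGAATG (12.64% of windows) at 137 to 132 bases and a CArG box (1.47% of windows) at 17 to 8 bases before the start. The Pdgfd window holds TATAAA (12.37% of windows) at 160 to 155 bases before the RefSeq transcription start. This start lies 123 bases inside the annotated gene, beyond the end of the line shown. No window of the 4 genes holds CCAAT (33.85%) or TGANTCA (6.75%), and the Pdgfra window holds none of the 6. The Pdgfa window carries 28 CpG dinucleotides, a number reached by 7.6% of windows, against 4 for Pdgfra and 3 each for the full windows of Pdgfc and Pdgfd, where the median is 6. Another annotated start of Pdgfa, at chr5:138994282-138994531, carries 19 CpG and GGGCGG once. The Pdgfa and Pdgfra windows lie inside the annotated span of their genes, behind longer transcript models, and whether they fall in an exon or an intron of those models was not determined. A match is a string of letters, not a measured binding site.

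The receptor Pdgfrb was higher in stressed than in unstressed wounds at day 14 and fell from day 6 to day 14 with and without load. Probe set 1417148_at read -0.90, -0.04, 0.13 and 0.04 in the unstressed wounds of day 6 and 0.45, 0.24, 0.46 and 0.35 in the stressed ones. At day 14 it read -1.32, -1.55, -1.89 and -1.14 in unstressed and -0.60, 0.18, -0.69 and -0.71 in stressed wounds. The groups did not overlap at either day. The group means were -0.19 ± 0.48 and 0.38 ± 0.10 at day 6, and -1.48 ± 0.33 and -0.46 ± 0.43 at day 14 (SD, n = 4). Under load it rose by 1.02 at day 14 (SE 0.24, adjusted p = 0.0192), a 2.03-fold difference, while the difference of 0.57 at day 6 was not called (SE 0.24, adjusted p = 0.797). The call at day 14 was lost without unstressed replicate 3 of day 14 (0.88, adjusted p = 0.0511) and without stressed replicate 2 of day 14 (0.81, adjusted p = 0.0663).

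The other Pdgfrb probe set, 1436970_a_at, had the same order of group means. Its values were -0.63, -0.09, 0.30 and 0.07 in unstressed and 0.42, 0.60, 0.57 and 0.52 in stressed wounds of day 6. At day 14 they were -1.10, -1.44, -2.80 and -1.40 in unstressed and -0.42, 0.37, -1.25 and -0.77 in stressed wounds, where the lowest stressed array lay below the highest unstressed one. The loading difference of 1.17 at day 14 was not called (SE 0.35, adjusted p = 0.0546), and it was called with the replicate numbers of each day as a block (adjusted p = 0.0143), an alternative added after seeing the data. The difference was also called without unstressed replicate 1 (1.36, adjusted p = 0.0481), stressed replicate 3 (1.41, adjusted p = 0.0292) or stressed replicate 4 of day 14 (1.25, adjusted p = 0.044).

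Over time, Pdgfrb fell by 1.28 (SE 0.24, adjusted p = 0.00077) on 1417148_at and by 1.60 (SE 0.35, adjusted p = 0.00235) on 1436970_a_at in unstressed wounds. After quantile normalization these were -0.65 (adjusted p = 0.0855, not called) and -0.88 (adjusted p = 0.0221). In stressed wounds it fell by 0.83 (SE 0.24, adjusted p = 0.0108) and by 1.05 (SE 0.35, adjusted p = 0.0237). In order of their means, stressed wounds of day 6 were highest, followed by unstressed wounds of day 6, stressed wounds of day 14 and unstressed wounds of day 14, on both probe sets. The middle pair, unstressed day 6 and stressed day 14, overlapped. With only the low-Xist arrays the stressed differences over time were -0.58 (adjusted p = 0.0987) and -0.56 (adjusted p = 0.0888), and neither was called. On 1436970_a_at the stressed call was also lost without stressed replicate 3 (-0.80, adjusted p = 0.0834) or 4 (-0.96, adjusted p = 0.0535) of day 14.

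The receptor Pdgfra was higher in stressed wounds of day 14 on 1 of its 3 probe sets by the call, close to it on another, and not different on the third. On 1421916_at the day 14 values were -0.32, -0.52, -1.27 and -0.63 in unstressed and 1.17, 1.64, -0.19 and 0.25 in stressed wounds, with no overlap. The rise was 1.40 (SE 0.37, adjusted p = 0.0337), from -0.69 ± 0.41 to 0.72 ± 0.84 (SD, n = 4), or 2.65-fold. The stressed arrays 1 and 2 stood above the stressed arrays 3 and 4. The call was lost without unstressed replicate 2 (1.46, adjusted p = 0.0549), 3 (1.21, adjusted p = 0.0836) or 4 (1.42, adjusted p = 0.0529), and without stressed replicate 1 (1.25, adjusted p = 0.0993) or 2 (1.09, adjusted p = 0.117) of day 14.

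On 1421917_at the unstressed wounds of day 14 read -0.59, -0.50, -1.31 and -0.33. The stressed ones read 0.00, 0.54, 0.03 and 0.29, again with no overlap. The difference was 0.90 (SE 0.27, adjusted p = 0.0528, not called), and it was called without unstressed replicate 4 of day 14 (1.01, adjusted p = 0.047). On 1438946_at the unstressed wounds read -0.36, -0.42, -0.84 and -0.14 and the stressed ones -0.31, 0.06, -1.23 and -0.60. The unstressed range lay within the stressed one, with a difference of -0.08 (SE 0.23, adjusted p = 0.887). The loading effect on 1421916_at exceeded that on 1438946_at by 1.48, and that on 1421917_at by 0.97. Both differences had an exact two-sided permutation p of 0.0286, the smallest that 4 against 4 arrays can give, and an adjusted p of 0.143 over the 20 comparisons of probe sets of 1 gene. With 20 comparisons at least 12 would have to reach that smallest p for any to pass the threshold, so the adjusted values do not bear on whether the probe sets differ. On 1421916_at minus 1438946_at the stressed arrays lay at 0.84 to 1.58 and the unstressed ones at -0.49 to 0.04.

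At day 6 all 3 Pdgfra probe sets had higher means in stressed wounds, and none was called. For 1421917_at the unstressed arrays read -0.76, -0.00, -1.12 and -0.62 and the stressed ones 0.28, -0.47, 0.37 and 0.57, a difference of 0.81 (SE 0.27, adjusted p = 0.549). The stressed replicate 2 alone lay within the unstressed range. For 1421916_at the difference was 0.84 (SE 0.37, adjusted p = 0.833) and for 1438946_at it was 0.37 (SE 0.23, adjusted p = 0.956). Over time, the unstressed differences of Pdgfra were -0.05 on 1421916_at and -0.06 on 1421917_at, with 95% intervals of -0.83 to 0.74 and -0.62 to 0.51. On 1438946_at Pdgfra fell by 0.89 in stressed wounds (SE 0.23, adjusted p = 0.00542) and the unstressed difference was -0.44 (adjusted p = 0.136). On 1421916_at the stressed difference of 0.51 was not called (adjusted p = 0.269), and with only the low-Xist arrays it was 1.21 and called (adjusted p = 0.0102).

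**Figure D1:**
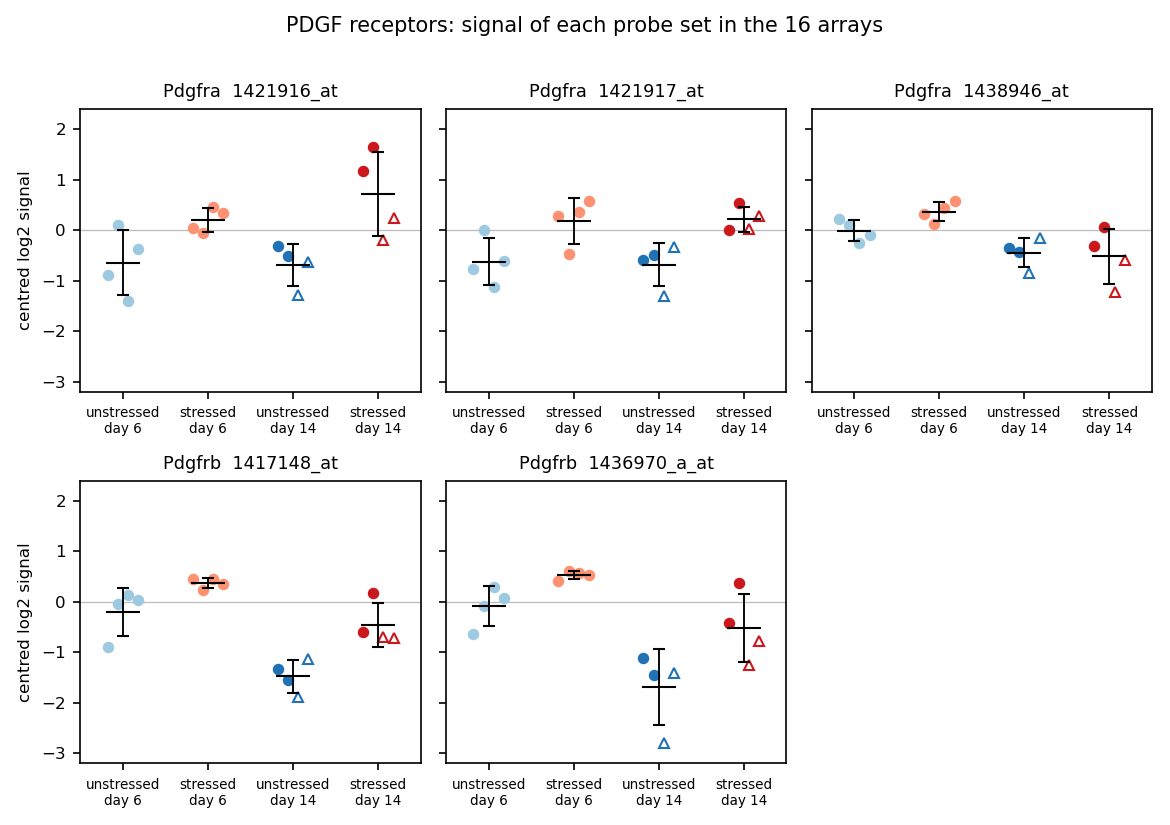
Centred log2 signal (y axis) of the 3 Pdgfra and 2 Pdgfrb probe sets in the 4 groups (x axis). Each point is 1 array, open triangles are the high-Xist arrays (replicates 3 and 4 of day 14), and bars are the mean and SD of 4 arrays; for Pdgfrb 1417148_at the stressed arrays of day 14 lie between -0.71 and 0.18, all above the unstressed arrays of that day.

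Pdgfa, which encodes PDGF-A, a ligand of the Pdgfra product, was the member that fell under load at day 14. On 1449187_at the unstressed wounds of day 14 read 0.26, -0.29, -0.37 and -0.31 and the stressed ones -0.84, -1.87, -1.20 and -0.46, with no overlap. The group means were -0.17 ± 0.30 and -1.09 ± 0.60 (SD, n = 4), and the signal fell by 0.92 under load (SE 0.23, adjusted p = 0.0272). The stressed replicate 2 was the lowest. The call was lost without unstressed replicate 1 (-0.77, adjusted p = 0.0766), stressed replicate 2 (-0.66, adjusted p = 0.0713) or stressed replicate 3 (-0.88, adjusted p = 0.0519) of day 14.

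On the other Pdgfa probe set, 1418711_at, the day 14 values were -0.49, -0.46, -0.53 and -0.63 in unstressed and -1.33, -2.25, -0.89 and -0.83 in stressed wounds. The groups did not overlap here either, and the difference of -0.80 was not called (SE 0.25, adjusted p = 0.0666). It was called without stressed replicate 3 (-0.94, adjusted p = 0.0448) or 4 (-0.96, adjusted p = 0.0229) of day 14. At day 6 the loading differences of Pdgfa were 0.10 on 1418711_at and 0.02 on 1449187_at, with 95% intervals of -0.44 to 0.64 and -0.47 to 0.51. From day 6 to day 14 Pdgfa fell in stressed wounds on both probe sets, by 1.57 on 1418711_at (SE 0.25, adjusted p = 0.000237) and by 1.15 on 1449187_at (SE 0.23, adjusted p = 0.00115). In unstressed wounds it fell by 0.68 on 1418711_at (SE 0.25, adjusted p = 0.044), a call lost without each of the 8 unstressed arrays in turn (adjusted p from 0.0676 to 0.0911) and with the replicate block (adjusted p = 0.0689). There the difference on 1449187_at was -0.21 (adjusted p = 0.49). By their means the 2 day 6 groups were highest, unstressed wounds of day 14 came next and stressed wounds of day 14 were lowest. On 1449187_at the unstressed wounds of day 14 overlapped those of day 6.

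Pdgfb, the ligand by which endothelium recruits pericytes, showed no called loading effect at either day and fell with time. On 1450414_at the day 14 values were -0.60, -1.05, -1.24 and -1.76 in unstressed and -1.11, -0.42, -1.05 and -1.49 in stressed wounds, so the groups overlapped. The loading difference at day 14 was 0.14 (95% interval -0.35 to 0.63) and that at day 6 was -0.07 (-0.56 to 0.42). At day 6 the 8 arrays read -0.07 to 0.39, above all arrays of day 14. Pdgfb fell by 1.32 in unstressed (SE 0.23, adjusted p = 0.000482) and by 1.11 in stressed wounds (SE 0.23, adjusted p = 0.0015). On 1450413_at it fell by 0.52 in unstressed wounds (SE 0.17, adjusted p = 0.0204), and the stressed difference was -0.09 (adjusted p = 0.663). The former call was lost without unstressed replicate 4 of day 6 (-0.47, adjusted p = 0.0572) or unstressed replicate 3 of day 14 (-0.47, adjusted p = 0.0562), and with only the low-Xist arrays (-0.41, adjusted p = 0.14). The loading difference on 1450413_at was -0.35 at day 6 (95% interval -0.70 to 0.01, adjusted p = 0.889). At day 14 it was 0.08 (-0.27 to 0.44).

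Pdgfc, which encodes a latent ligand that signals mainly through the Pdgfra product, had the largest loading difference of the family at day 6, and it was not called. On 1419123_a_at the unstressed arrays of day 6 read 0.07, 0.24, -0.28 and -0.34 and the stressed ones 0.71, 1.29, 0.70 and 1.11. The groups did not overlap, and the difference was 1.03 (SE 0.38, adjusted p = 0.679). On 1449351_s_at, whose suffix marks probes that can also match other transcripts, the unstressed arrays read -0.05, 0.05, -0.52 and -0.28 and the stressed ones 0.36, 0.45, 0.42 and 0.83. That difference was 0.72 (SE 0.28, adjusted p = 0.743), again without overlap. The SE is of all 16 arrays and so includes the wider spread of day 14.

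At day 14, Pdgfc on 1419123_a_at read -0.74, -1.38, -1.87 and -1.05 in unstressed and -0.41, 1.09, -1.27 and -0.79 in stressed wounds. The stressed replicate 2 stood above all other arrays of that day, and the difference of 0.92 was not called (SE 0.38, adjusted p = 0.156). On 1449351_s_at the difference was also 0.92 (SE 0.28, adjusted p = 0.0615), and it was called without stressed replicate 3 (1.07, adjusted p = 0.0439) or 4 (1.12, adjusted p = 0.018) of day 14. With time 1419123_a_at fell by 1.19 in unstressed (SE 0.38, adjusted p = 0.0217) and by 1.30 in stressed wounds (SE 0.38, adjusted p = 0.0121). The unstressed call was lost without unstressed replicate 2 of day 6 (-1.08, adjusted p = 0.0608) or unstressed replicate 3 of day 14 (-0.98, adjusted p = 0.0684), with the Xist class as a block (-0.75, adjusted p = 0.108) and after quantile normalization (-0.61, adjusted p = 0.139). With only the low-Xist arrays the stressed difference was -0.61 (adjusted p = 0.171). On 1449351_s_at the stressed difference was -0.44 (adjusted p = 0.215), and without stressed replicate 2 of day 14 it was -0.80 and called (adjusted p = 0.00554).

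Pdgfd, the latent ligand of the Pdgfrb product, had the largest loading effect of the family at day 14. On 1456532_at the unstressed wounds of day 14 read -2.39, -2.13, -2.31 and -1.76 and the stressed ones 1.63, 0.13, -0.81 and -1.07. All stressed arrays lay above all unstressed ones, and stressed replicates 1 and 2 above stressed replicates 3 and 4. The group means were -2.15 ± 0.28 and -0.03 ± 1.22 (SD, n = 4). Pdgfd rose by 2.12 (SE 0.45, adjusted p = 0.0119), or 4.34-fold if the logs are base 2. It was called in all 8 fits that left out 1 array of day 14, with adjusted p from 0.00276 to 0.0413. At day 6 the arrays of 1456532_at read 0.16, 0.66, -0.26 and 0.04 in unstressed and 0.58, -0.04, 0.83 and 1.27 in stressed wounds, an overlapping difference of 0.51 (SE 0.45, adjusted p = 0.997). In unstressed wounds Pdgfd fell by 2.30 from day 6 to day 14 (SE 0.45, adjusted p = 0.00106), the largest change of any member in any comparison, whereas in stressed wounds the difference was -0.69 (adjusted p = 0.22). The stressed value was 0.22 with only the low-Xist arrays (adjusted p = 0.683). With only the high-Xist arrays at day 14, set against the low-Xist arrays of day 6, it was -1.60 and called (adjusted p = 0.00336). Without stressed replicate 1 of day 14 it was -1.24 and called (adjusted p = 0.00764). Whether the stressed change differs between the classes was not tested.

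The other Pdgfd probe sets gave smaller values. On 1426319_at the unstressed wounds of day 14 read -0.48, -0.53, -0.29 and -0.37 and the stressed ones 2.10, 1.33, 0.03 and -0.14, with no overlap and a difference of 1.25 (SE 0.42, adjusted p = 0.0806). It was called without stressed replicate 3 or 4 of day 14. With time 1426319_at differed by -0.53 in unstressed (adjusted p = 0.33) and by 0.41 in stressed wounds (adjusted p = 0.444), neither called. On 1446691_at the loading difference at day 14 was 0.26 (SE 0.20, adjusted p = 0.476), the time difference in unstressed wounds was 0.43 (adjusted p = 0.103), and the signal rose by 0.68 in stressed wounds (SE 0.20, adjusted p = 0.0128). That direction with time is opposite to that of 1456532_at. The loading effect at day 14 on 1456532_at exceeded that on 1426319_at by 0.87 (exact permutation p = 0.0286, adjusted p = 0.143) and that on 1446691_at by 1.85 (exact permutation p = 0.0571, adjusted p = 0.229).

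**Figure D2:**
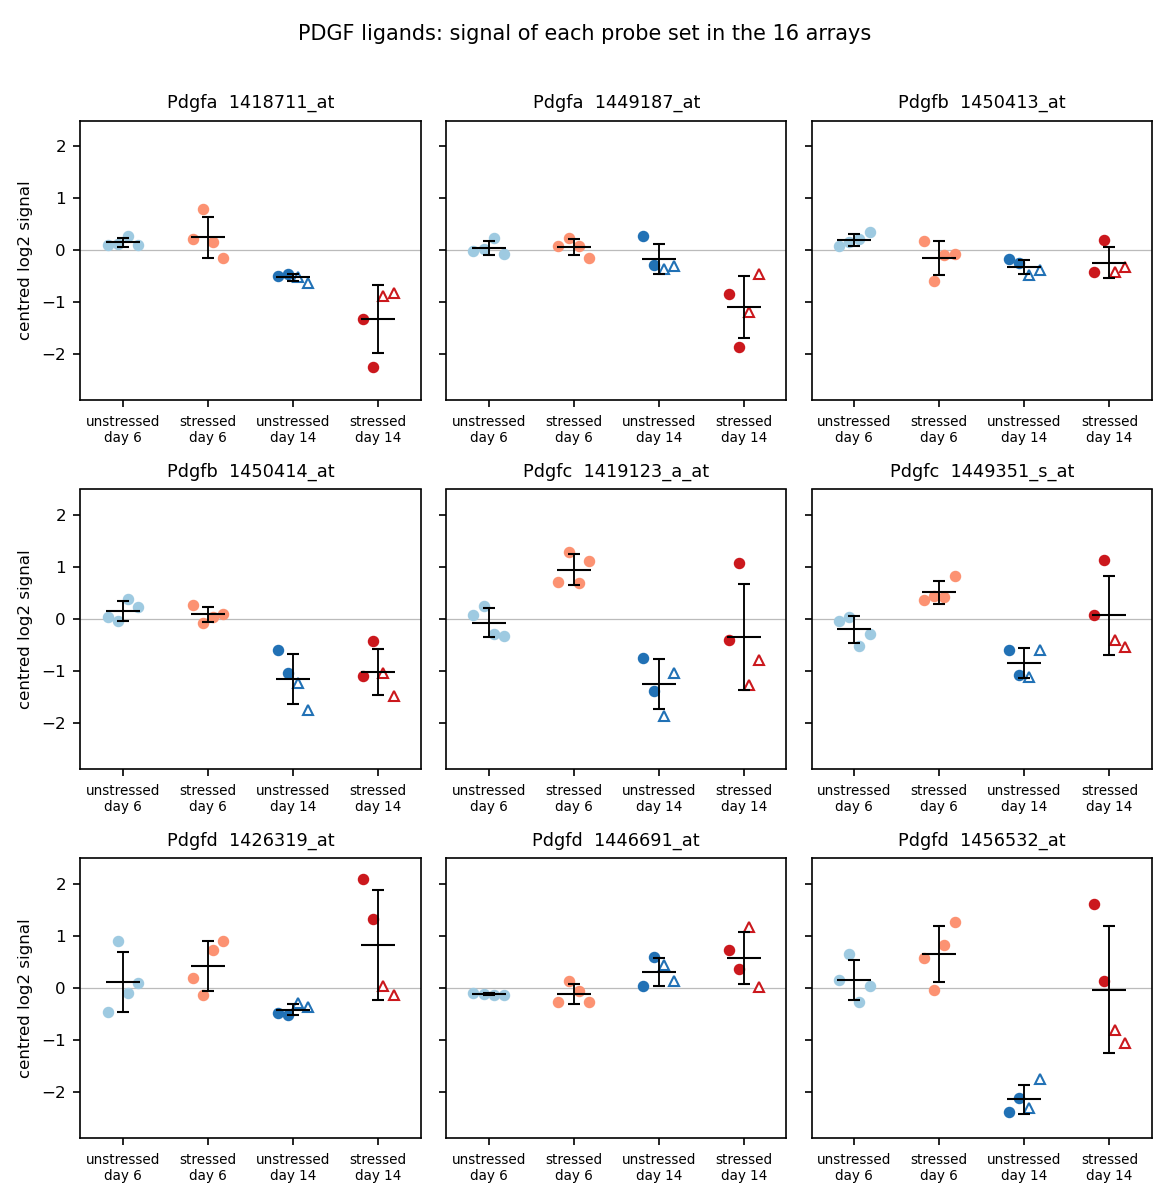
Centred log2 signal (y axis) of the 9 ligand probe sets in the 4 groups (x axis). Points are single arrays, open triangles are the high-Xist arrays of day 14, and bars are the mean and SD of 4 arrays; Pdgfd 1456532_at lies between -2.39 and -1.76 in the unstressed wounds of day 14 and between -1.07 and 1.63 in the stressed ones.

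Over the whole family, 0 of 14 probe sets were called for loading at day 6, where 0.0258% of all probe sets were called, and 5 members had an unadjusted p below 0.05, against 5.67% of all. At day 14, 4 of 14 were called, 3 higher (Pdgfd, Pdgfra and Pdgfrb, 1 probe set each) and 1 lower (Pdgfa), against 7.35% of all probe sets (3.31% higher and 4.04% lower). The median loading difference of the 14 was 0.44 at day 6 and 0.91 at day 14, where the medians of all probe sets were 0.001 and 0.005. At day 6 the 2 groups did not overlap on 4 members, all higher under load, against 6.16% of all probe sets (3.11% higher). At day 14 they did not overlap on 8 members, 6 higher and 2 lower, against 10.1% (5.55% higher and 4.52% lower). The members at day 6 without overlap were both Pdgfc and both Pdgfrb probe sets. Over time 7 of 14 were called in unstressed wounds, all lower, where 40.2% of all probe sets were called and 23.4% were called lower. In stressed wounds 8 of 14 were called, 7 lower and 1 higher, where 45.3% of all were called, 26.6% lower and 18.7% higher. All 14 lie among the 17473 probe sets of larger interquartile range. A fit of these alone called 7 members with time in unstressed and 8 in stressed wounds. There 67.8% and 68.8% of the 17473 were called, 7413 and 7644 of them lower. For loading at day 14 that fit called 6 members, 5 higher and 1 lower. Of the 17473 it called 11.8% for loading at day 14, with 1026 higher and 1038 lower. The loading and time comparisons share groups, so these counts are not independent of each other. Within a count, the 14 probe sets belong to 6 genes, so probe sets of 1 gene are not independent either.

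**Figure D3:**
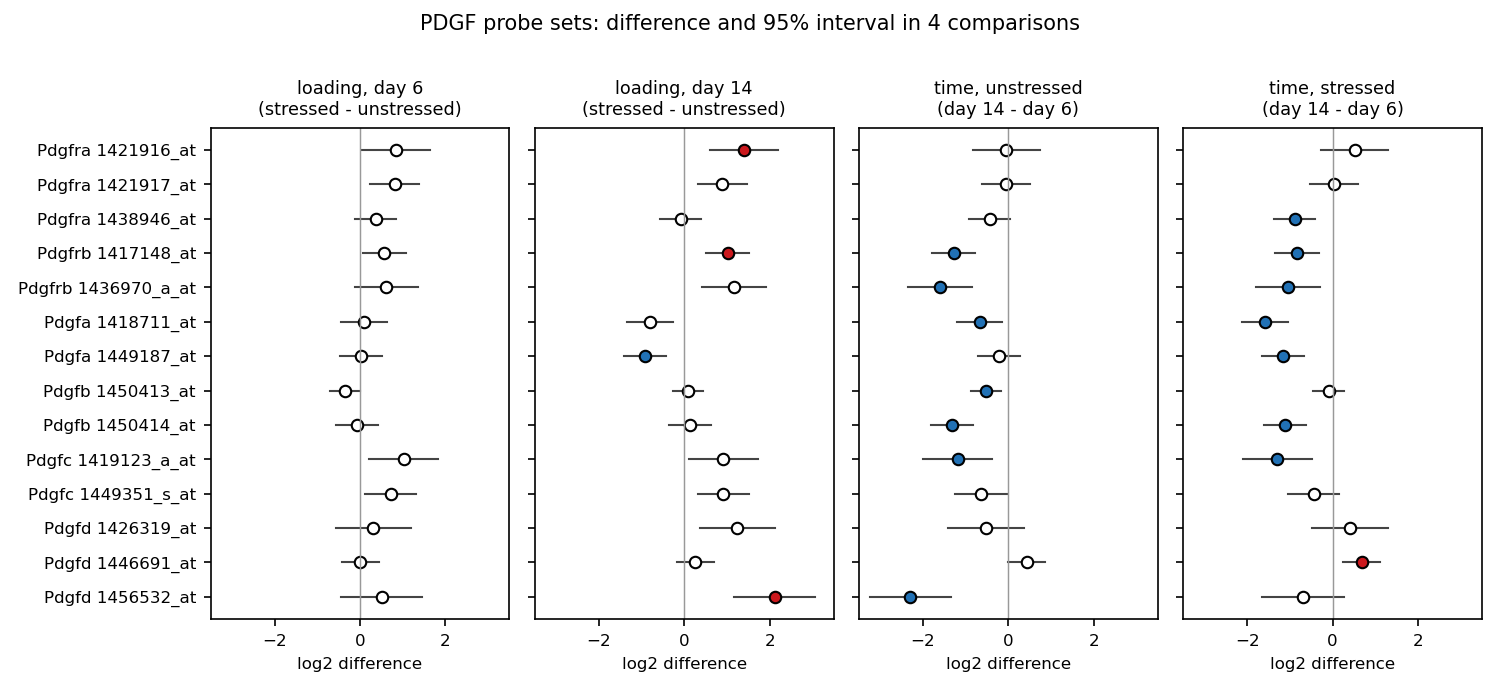
Log2 difference (x axis) with its 95% interval for the 14 probe sets (y axis) in the loading comparison at each day and the time comparison with and without load. Filled points were called in limma, red higher and blue lower; at day 14 Pdgfd 1456532_at, Pdgfra 1421916_at and Pdgfrb 1417148_at are filled red and Pdgfa 1449187_at blue, and at day 6 no point is filled.

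The day 14 calls rest on the fit of all 16 arrays. With the 8 day 14 arrays alone the differences are the same and none of the 14 members was called, the 4 members above having adjusted p of 0.108 (Pdgfd), 0.133 (Pdgfra), 0.1 (Pdgfrb) and 0.162 (Pdgfa). After quantile normalization between arrays no member was called at day 14, with differences of 1.52, 1.08, 0.68 and -0.64 for these 4. At day 6 the same step raised Pdgfc 1419123_a_at to 1.50 (adjusted p = 0.0296) and Pdgfra 1421917_at to 1.31 (adjusted p = 0.0437), both called.

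For most members the day 14 difference was larger in the low-Xist class of arrays, and its direction was opposite in the classes on 1 probe set. In replicates 1 and 2, of low Xist, the stressed arrays differed from the unstressed ones by 3.14 for Pdgfd 1456532_at, 1.83 for Pdgfra 1421916_at, 1.23 for Pdgfrb 1417148_at and -1.34 for Pdgfa 1449187_at. In replicates 3 and 4, of high Xist, these were 1.10, 0.98, 0.81 and -0.49. Pdgfc 1419123_a_at differed by 1.40 and 0.43 and Pdgfd 1426319_at by 2.22 and 0.28. Pdgfra 1421917_at (0.82 and 0.98) and Pdgfrb 1436970_a_at (1.25 and 1.09) were close in both classes, and Pdgfra 1438946_at was 0.27 in one and -0.42 in the other. With the Xist class as a block, 9 members were called, 7 higher and 2 lower, where 11.7% of all probe sets were called. With only the low-Xist arrays 9 were called as well, again 7 higher and 2 lower, where 18.7% of all were called. With only the high-Xist arrays at day 14 the number was 0, against 2.29% of all. Whether the loading effect differs between the classes was not tested.

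**Figure D4:**
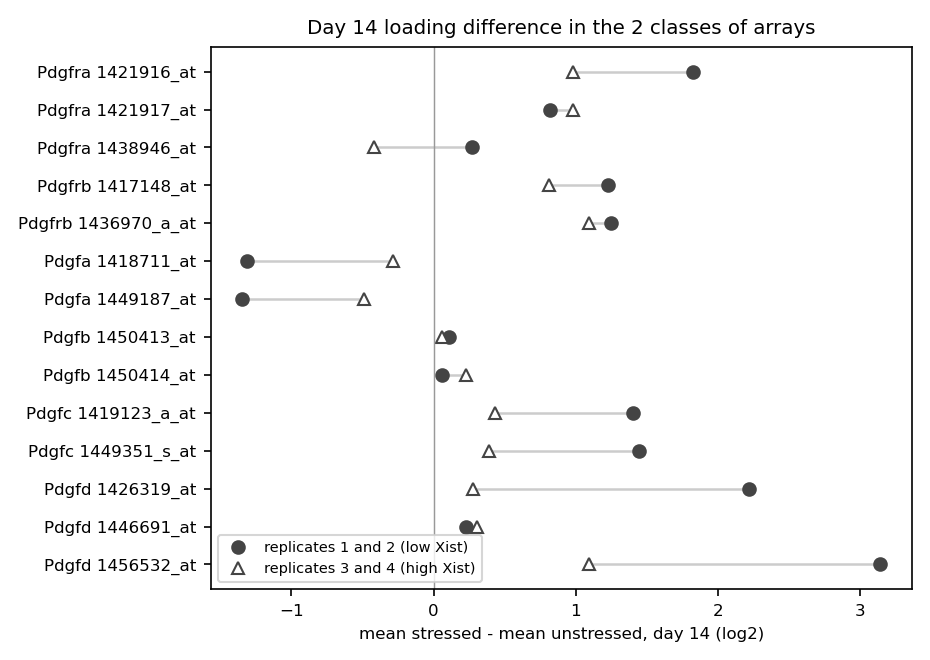
Mean of the stressed minus mean of the unstressed arrays at day 14 (x axis, log2) for the 14 probe sets (y axis), separately for replicates 1 and 2 (filled circles, low Xist) and replicates 3 and 4 (open triangles, high Xist). The circles lie farther from 0 for Pdgfd 1456532_at (3.14 against 1.10) and Pdgfa 1449187_at (-1.34 against -0.49), and close to the triangles for Pdgfrb 1436970_a_at (1.25 against 1.09).

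The change of the loading effect from day 6 to day 14 was not called for any member (0 of 14, against 0.00858% of all probe sets; 3 members had an unadjusted p below 0.05, against 10% of all). The largest difference between the days was 1.61 for Pdgfd 1456532_at (SE 0.63, adjusted p = 0.41), followed by -0.94 for Pdgfa 1449187_at (SE 0.33, adjusted p = 0.353) and -0.90 for Pdgfa 1418711_at (SE 0.36, adjusted p = 0.414). For Pdgfc 1419123_a_at it was -0.11, with an interval of -1.25 to 1.03. With only the low-Xist arrays 4 members were called, both Pdgfa probe sets lower and Pdgfd 1456532_at and 1426319_at higher at day 14 than at day 6. In that fit 7.87% of all probe sets were called.

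Markers of the cell types that make or receive PDGF moved in the same arrays. The mean of 12 fibroblast markers lay at -0.38 to -0.05 in unstressed and 0.36 to 0.52 in stressed wounds of day 6, and at -1.67 to -0.66 and -0.64 to 0.20 at day 14. Of these 12 genes 11 had a higher mean under load at day 6, none called, and 5 rose and 0 fell at day 14, with a median of 0.54. At day 6 the mean was also higher under load for all 10 endothelial and 9 macrophage markers, and lower for all 10 keratinocyte markers. None of these was called, and the median over all genes was 0.006. The other marker lists held both directions at day 6. Of 9 macrophage markers 6 rose under load at day 14 (median 1.45), and in unstressed wounds 7 fell with time (median -2.13). Of 12 pericyte and smooth muscle markers 0 rose and 3 fell under load at day 14 (median -0.06), and those 3 were Myh11, Cspg4 and Des. The list was mixed, with 5 means higher and 7 lower there. Rgs5 was 1.21 higher and not called (SE 0.38, adjusted p = 0.0622). Of 10 endothelial markers none was called there (median 0.74). Among 8 platelet markers none was called for loading. Keratinocytes are known to make PDGF-A, and of 10 of their markers 1 fell under load at day 14 (median 0.07). Skeletal muscle markers fell in 7 of 10 genes (median -2.92) and adipocyte markers in 6 of 8 (median -2.26) under load at day 14. These gene counts use 1 probe set per gene, over which 8.15% of genes were called for loading at day 14 (3.88% higher and 4.27% lower) and 0.055% at day 6. With time 55% were called in unstressed and 58.3% in stressed wounds. The part of these markers in the PDGF results was not tested.

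Single arrays stood apart on marker lists as well. In unstressed replicate 1 of day 6 Pdgfrb 1417148_at was at -0.90, the endothelial mean at -0.94 and the pericyte mean at -0.58, whereas the other 3 arrays of that group lay at -0.04 to 0.13, 0.15 to 0.31 and 0.11 to 0.16. The fibroblast (-0.06) and macrophage (0.10) means of that array lay within the range of the other 3. In unstressed replicate 3 of day 14 Pdgfrb 1436970_a_at was lowest at -2.80, and this array had the lowest mean of its group on all 8 marker lists, skeletal muscle (-1.48), keratinocyte (-1.07) and platelet (-0.38) included. Without unstressed replicate 1 of day 6 the Pdgfrb loading difference at day 6 on 1417148_at was 0.33, and it was 0.57 with it.

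**Figure D5:**
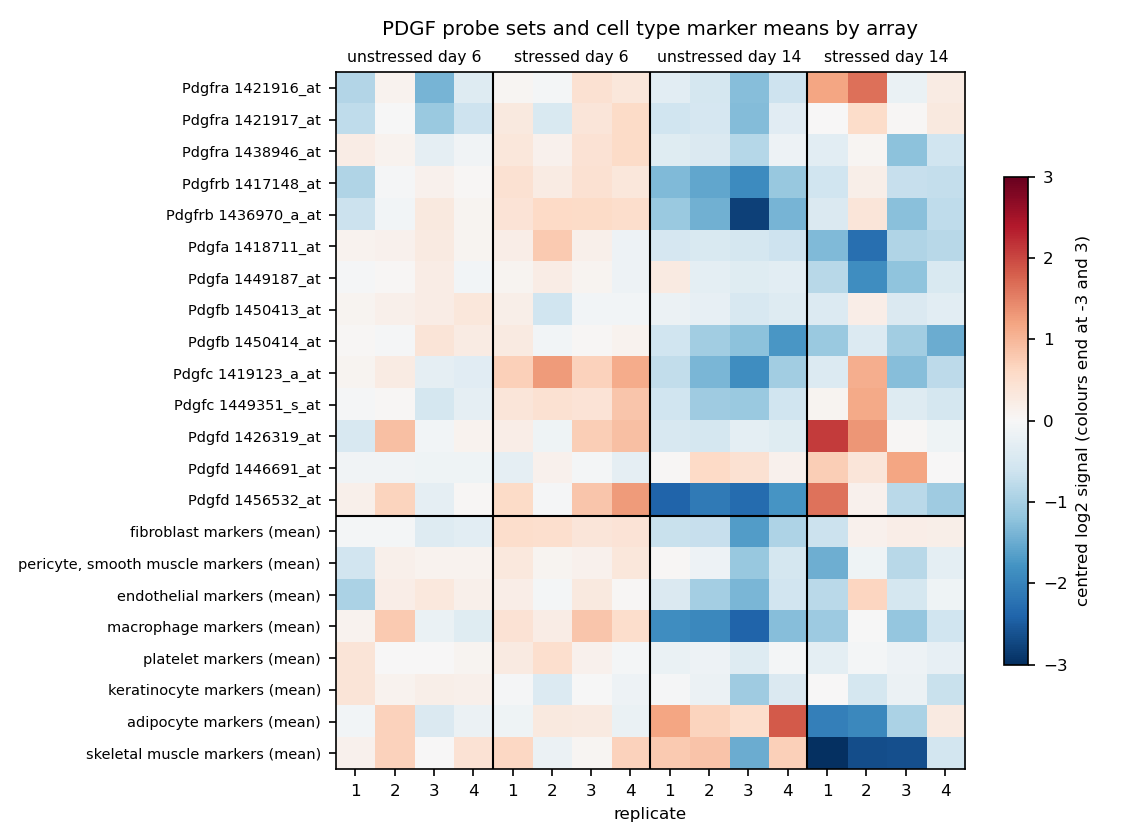
Centred log2 signal of the 14 PDGF probe sets and the mean of each marker list (rows) in the 16 arrays (columns, replicates 1 to 4 of each group), with red above and blue below 0. Both Pdgfrb rows and the macrophage row are blue in all unstressed arrays of day 14, the Pdgfa rows are darkest blue in the stressed arrays of day 14, and the muscle row is darkest in stressed replicates 1 to 3 of day 14.

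Among 14 genes that process or bind PDGF, 2 rose and 0 fell under load at day 14, with a median of 0.31. Of all genes 3.88% were called higher and 4.27% lower there. Plat, which encodes the tissue plasminogen activator that activates PDGF-C, rose by 1.87 (SE 0.34, adjusted p = 0.00488). Pdgfrl, which encodes a secreted protein resembling the receptor's extracellular part, rose by 2.59 (SE 0.44, adjusted p = 0.00321). Both fell with time in unstressed wounds, Pdgfrl by 2.64 (SE 0.44, adjusted p = 0.000215) and Plat by 1.07 (SE 0.34, adjusted p = 0.0148), and neither was called with time in stressed wounds. In unstressed wounds 2 genes of the list rose and 4 fell with time, no larger a share than the 55% of all genes called there, among them Pdap1, a PDGF-A-associated protein (-1.79), and the matrix protein Sparc, which binds PDGF-B (0.81). In stressed wounds 2 rose and 2 fell, below the 58.3% of all genes. Sparc was 1.12 higher at day 14, Plau, which encodes urokinase, was 0.53 higher, and Nrp1 (-1.20) and Pdap1 (-1.27) were lower. At day 6 none of the 14 was called for loading.

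Of 38 genes listed for signalling below the receptors, 33 were measured, and 0 were called for loading at day 6. At day 14, 4 rose and 0 fell under load, with a median of 0.10, where 3.88% of all genes were called higher and 4.27% lower. They were the adaptors Grb10 (1.58, SE 0.32, adjusted p = 0.00878), Shc1 (1.21, SE 0.25, adjusted p = 0.0102) and Crkl (0.71, SE 0.21, adjusted p = 0.0451) and the ubiquitin ligase Cbl (0.89, SE 0.21, adjusted p = 0.0171), which marks activated receptors for degradation. With time 15 fell and 2 rose in unstressed wounds, and 12 fell and 5 rose in stressed ones. Ptprj, a phosphatase that acts on PDGF receptors, fell by 1.85 in unstressed (SE 0.17, adjusted p = 3.47e-06) and 1.70 in stressed wounds. The kinase subunit Pik3ca fell by 1.55 and 1.85, and in unstressed wounds the adaptors Crk and Grb2 fell by 1.06 and 0.90. In stressed wounds Map2k2 fell by 1.28 and Crkl rose by 1.48. In these comparisons 31.8% and 34.3% of all genes were called lower, and 4211 and 4363 of 18193 genes were called higher.

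The genes most like each member over the 16 arrays were ranked by Pearson's r between probe sets with the largest interquartile range. The arrays share their groups, so r reflects the group means as well as single arrays and carries no p. For Pdgfrb they were Cyba (r = 0.974), Tgfb1i1 (0.971) and Esyt1 (0.966), where Tgfb1i1 encodes a focal adhesion protein and Cyba a subunit of the phagocyte oxidase. Pdgfra was closest to Bicc1 (0.925), Tfpi (0.911) and Svep1 (0.909), and Pdgfd to Itgbl1 (0.949), Osr2 (0.938) and Rab31 (0.935). Pdgfc was closest to Mras (0.967), Sptbn1 (0.946) and Gmds (0.943). Pdgfb was closest to Prrc1 (0.948), Srp19 (0.946) and Haghl (0.943), and Pdgfa to Nkap (0.98), Ube3a (0.96) and Mrps27 (0.959). No member was among the 3 genes closest to another member.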

How the data were processed

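Total RNA of 16 wounds was measured on Affymetrix GeneChip arrays. GeneSpring GX 11.0 was the authors' software for the intensity files, per the series design text. The deposited values are log signals, read as log2 and centred per probe set by the authors on a reference that the sources used here do not give: 6.3% of rows have a median within 0.001 of 0. The largest range of a row is 10.08. How they summarized and normalized the probes is not stated by the labels. No filter on dim signal could be made. List genes that matched no row were not analysed here.

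Probe sets were named with GEO's platform annotation of 2016. Of 45101 probe sets, 34945 with 1 symbol were tested, after leaving out 932 with several, 9211 with none and 13 control probe sets with a symbol. No probe set with several symbols held a member. All 16 arrays were fitted on their group means with limma 3.58.1 (lmFit, eBayes; R 4.3.3), two-sided, with Benjamini-Hochberg adjustment over all 34945 and a threshold of 0.05. Gene lists used 1 probe set per gene, that with the largest interquartile range (18193 genes). Other probe sets of a list gene are not given and can differ from it, as those of some members do. Probe sets of 1 gene were compared by exact permutation tests. Tables and plots used Python 3.11.15, pandas 2.3.3 and matplotlib 3.10.9. The text names every member probe set and the 3 genes most like each member. Outside the cell type markers it names up to 4 called genes per list and comparison, by smallest p.

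The members, lists and tests were chosen with earlier results of these data known. P-values measure the spread between the arrays of a group, which the design text gives as separate mice. No 2 replicates of a group were alike within noise: the smallest SD of the difference between 2 of them was 0.238. Deviations from the group means of same-numbered stressed and unstressed arrays correlated at 0.249, 0.172, 0.259 and 0.144 at day 14 and at -0.42 to -0.001 at day 6. At day 14 unstressed replicate 2 correlated most with stressed replicate 1, and same-numbered arrays also share their Xist class. Whether same numbers stand for pairs was not tested apart from that class. The main fit used no pairs, and the fit with the replicate number as a block is an alternative. The other alternatives were quantile normalization, the groups compared alone, 1 probe set per gene and the probe sets of larger interquartile range. Further ones were the Xist class as a block, the low-Xist arrays alone, and each array left out in turn. A last one kept only the high-Xist arrays at day 14, with all day 6 arrays, which are low-Xist. In its time comparisons day and Xist class cannot be told apart. The limma step was tested on simulated data first.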

Additional observations from a re-analysis of the deposited data

Results flagged for a closer look

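In 4 of the 56 sets of 4 arrays (14 probe sets in 4 groups) 1 array stood far from the others of its group by Dixon's test. Chance alone marks about 1 in 20 such sets. Pdgfa 1449187_at read 0.26 in unstressed replicate 1 of day 14, above -0.29 to -0.37 in the other arrays, and without it the loading difference at day 14 was -0.77 and was not called by limma (adjusted p = 0.0766). Pdgfrb 1417148_at read 0.18 in stressed replicate 2 of day 14, above -0.71 to -0.60 in the others, and without it the difference was 0.81 and was not called (adjusted p = 0.0663). Pdgfrb 1417148_at read -0.90 in unstressed replicate 1 of day 6. Pdgfb 1450413_at read 0.19 in stressed replicate 2 of day 14, above -0.43 to -0.33 in the others.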

How the results depend on the processing

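Among 1220 comparisons of a member under another setting, 1078 kept their direction and their side of the threshold, 49 lost a call, 39 gained one and 54 changed sign without being called in either fit, the largest of these at 0.66. The loading calls at day 14 moved most. With 1 probe set per gene, a fit that holds 6 of the 14 members and only 1 of the 4 called, 1 was called. Against 4 of 14 called by limma, 0 were called after quantile normalization, 0 with the day 14 arrays alone, 9 with the Xist class as a block, 9 with only the low-Xist arrays and 0 with only the high-Xist arrays, and 1 to 8 without single arrays. Over all probe sets 2567 were called there, against 364, 122, 4085, 6548 and 800 in the same order, 1483 of 18193 with 1 probe set per gene, and 948 to 4800 without single arrays; of the 122 called, 102 were higher, against 1156 of 2567.

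At day 6 quantile normalization called 2 members in place of 0. Over all probe sets 9 were called there (1982 had an unadjusted p below 0.05), against 496 after quantile normalization (338 higher, 158 lower, in place of 5 and 4), 16 with the day 6 arrays alone, 15 with the Xist class as a block, 16 with only the low-Xist arrays and 18 with only the high-Xist arrays at day 14, and 0 to 9 without single arrays. For the difference between the days 4 members were called with only the low-Xist arrays, in place of 0. Over all probe sets 3 were called, against 7 with 1 probe set per gene and 13 in the probe sets of larger interquartile range. The Xist block called 76, only the low-Xist arrays 2749, only the high-Xist arrays at day 14 called 83, and fits without single arrays 1 to 333. With time, quantile normalization called 4 members in unstressed wounds in place of 7, leaving out single arrays called 4 to 6, and in stressed wounds 1 probe set per gene called 4 of 6 members, against 8 of 14.

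With the replicate number as a block, 4 members and 2097 probe sets were called for loading at day 14, 3 probe sets at day 6 and 6 members with time in unstressed wounds. With the numbers paired within each day, added after seeing the data, the replicate block called 5 members at day 14, 1 probe set at day 6 and 16 for the difference between the days. These blocks by replicate number changed no other call of a member than those given beside the results. With the Xist class as a block, 5 members were called with time in unstressed and 7 in stressed wounds, against 36.3% and 43.9% of all probe sets. The centring leaves signal over background unknown, so a dim probe set could not be told from a bright one, and small differences on it were not resolved by 4 arrays per group.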

Other observations

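Among 14 measured relatives of the family, the class III receptors with their ligands and the VEGF genes, 2 rose and 1 fell under load at day 14 (median 0.27), and none was called at day 6. Of all genes 3.88% were called higher and 4.27% lower under load at day 14. Csf1r, the receptor of macrophage colony-stimulating factor, rose by 1.45 (SE 0.30, limma adjusted p = 0.0106) and the lymphatic growth factor Vegfd by 1.21 (SE 0.36, adjusted p = 0.0493), while Vegfb fell by 0.64 (SE 0.16, adjusted p = 0.0262). With time 3 rose and 6 fell in unstressed wounds and 4 rose and 5 fell in stressed wounds, where 55% and 58.3% of all genes were called. Il34, another ligand of the Csf1r product, fell by 1.94 and 1.53, and the lymphatic growth factor Vegfc by 1.98 and 2.28. Csf1r itself fell by 2.13 in unstressed wounds, and Vegfb fell by 1.08 in stressed wounds. Kitl, the ligand of the receptor Kit, was 0.84 and 0.95 higher at day 14.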
